A study of Mus musculus with 16 samples.

Results

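The 10 genes described here carry costimulatory or inhibitory signals between myeloid cells and T cells, and they were followed in liver neutrophils that lacked the receptor for interferon gamma (IFN-gamma) and in wild-type neutrophils of the same mice. The genes were Cd274 (PD-L1), Pdcd1lg2 (PD-L2), Icosl, Cd80, Cd86, Vsir (VISTA), Havcr2 (TIM-3), Lgals9 (galectin-9), Tnfsf9 (4-1BBL) and Tnfsf14 (LIGHT). They were chosen by name, and Havcr2 is a receptor of the TIM family rather than a ligand. All 10 were found among the 54532 gene identifiers of the count table, and all 10 were among the 9851 genes that passed the filter on low counts.

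A T cell that meets its antigen is activated or restrained by further contacts at the surface of the partner cell. CD80 and CD86 engage the activating receptor CD28 and the inhibitory receptor CTLA-4, ICOSL engages ICOS, and PD-L1 and PD-L2 engage the inhibitory receptor PD-1. IFN-gamma binds a receptor built from IFNGR1 and IFNGR2, whose kinases JAK1 and JAK2 pass the signal on to transcription factors. The transcription factor IRF1 is induced by this pathway, and the Cd274 promoter is a known target of it. PD-L1 on myeloid cells of the liver is known as a brake on T cells in that organ.

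The libraries came from 8 mixed bone marrow chimeras, numbered 2 to 9, which are irradiated mice whose blood cells derive from more than 1 marrow donor. Wild-type hosts of strain C57BL/6 were irradiated with about 1000 cGy and received 50% Ifngr1-deficient marrow marked by CD45.2 (the Ifngr1_KO group) and 50% wild-type marrow marked by CD45.1 (the WT group). After 8 weeks the mice were given flank tumours of MC38, a mouse colon carcinoma line, and 1 week later an agonist antibody (aCD40) to CD40, a TNF receptor family member that costimulates antigen-presenting cells. Liver neutrophils were sorted 2 days after the antibody, and each mouse gave 1 Ifngr1_KO and 1 WT library, so that there were 8 of each.

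Both groups therefore shared liver, tumour and antibody, and no mouse without tumour or antibody was among the samples. Age, sex and the CD45 type of the hosts were not given in the sources used here, so neutrophils left over from the host could not be identified. The donor, the CD45 allele and the gate of the sort differed between the genotypes in every mouse, so these and the loss of the receptor cannot be told apart. In bulk RNA, fewer cells carrying a transcript and less transcript per cell cannot be told apart either.

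Library totals were 12.5 to 16.9 M counts in Ifngr1_KO and 13.1 to 21.7 M in WT. Levels are given as counts per M counts of a library (CPM) scaled between libraries by TMM, as mean ± SD over 8 mice. Ifngr1, the gene named by the genotype, averaged 83.9 ± 29.5 CPM in Ifngr1_KO and 305 ± 46.6 CPM in WT, with no overlap between the groups. Its transcript was thus not absent from Ifngr1_KO, where 27.5% of the WT level remained. The source of the remainder was not tested. All 8 neutrophil markers checked were measured and none differed by the test used below, and their summed level was 27319 to 83274 CPM in Ifngr1_KO and 32011 to 54243 CPM in WT. The share of mitochondrial transcripts was 0.475% to 2.5% in Ifngr1_KO and 0.294% to 1.19% in WT. The Ifngr1_KO library of mouse 7 stood apart. Its median correlation with the other libraries was 0.821, against 0.899 to 0.937 for each of the other libraries, and it had the highest mitochondrial share.

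Each gene was tested by edgeR's quasi-likelihood test with the mouse as a block, with Benjamini-Hochberg adjustment over all 9851 genes and a threshold of 0.05. Of the 10 genes, Cd274 and Icosl fell in Ifngr1_KO, Havcr2 rose, and 7 did not pass. Over all genes tested, 276 passed (2.8%), of which 229 were lower in Ifngr1_KO (2.32%) and 47 were higher (0.477%). The median log2 fold change, Ifngr1_KO over WT, was -0.30 over the 10 genes and 0.046 over all genes. The plot of fitted changes shows that the 3 calls differed in how firmly they held: Cd274 passed under 16 of 16 alternative settings, Havcr2 under 7 and Icosl under 3. Without mouse 7, when 4.12% of genes passed, the same 3 of the 10 passed. DESeq2 called 11.0% of genes, 4 of the 10 among them (the 3 and Tnfsf14), and limma-voom with quality weights called 6.06%, with the same 3 of the 10.

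**Figure D1:**
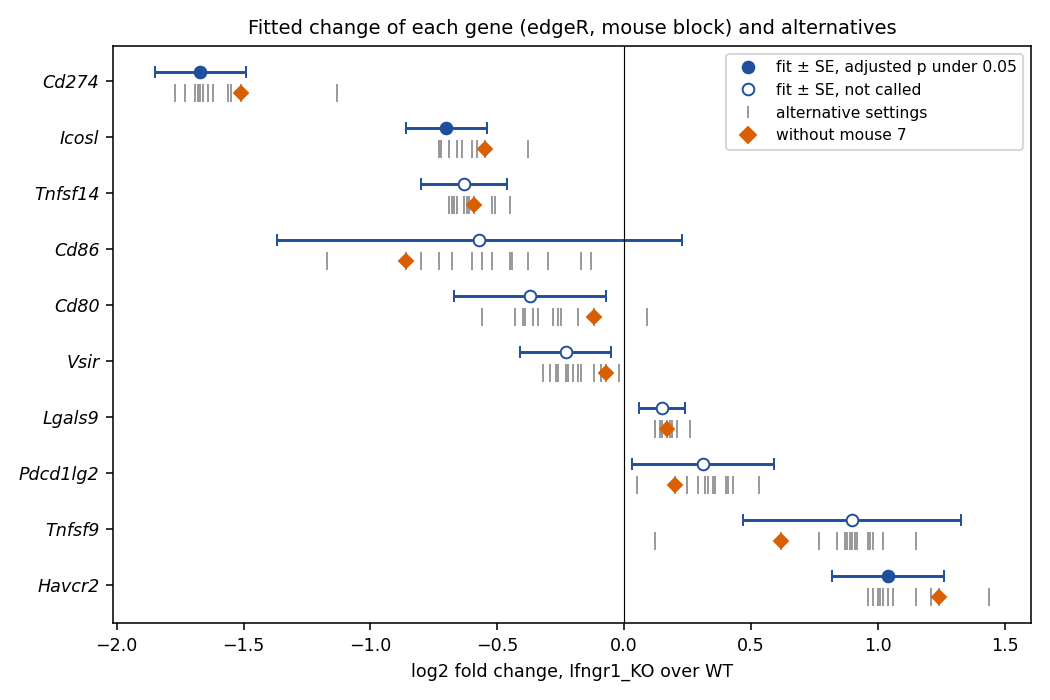
Fitted log2 fold change of each of the 10 genes, Ifngr1_KO over WT, on the x axis, as blue points with SE bars (filled where the adjusted p was under 0.05), with grey ticks for the alternative settings and an orange diamond for the fit without mouse 7. Cd274, at -1.67, lies farthest to the left, and Havcr2, at 1.04, lies farthest to the right.

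Cd274 encodes PD-L1, the main ligand of PD-1. The gene (ENSMUSG00000016496) lies at chr19:29367455-29388095 on the plus strand of mm10. The lowest, median and highest levels were 94.3, 311 and 446 CPM in Ifngr1_KO, against 566, 932 and 1479 CPM in WT. Every Ifngr1_KO library lay below every WT library, and such a gap was seen in 1.65% of all genes tested. The means were 311 ± 115 CPM in Ifngr1_KO and 957 ± 331 CPM in WT, so that 32.5% of the WT level remained.

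The log2 fold change of Cd274 was -1.67 (SE 0.18, adjusted p = 4.4e-04), and 250 of the 9851 genes had a lower one. Within mice, the log2 (CPM + 1) difference was -0.91 in mouse 2, -1.62 in mouse 3, -1.20 in mouse 4, -1.63 in mouse 5, -1.62 in mouse 6, -2.83 in mouse 7, -1.68 in mouse 8 and -1.89 in mouse 9. All 8 differences were negative, and that of mouse 7 was the largest in size. Without mouse 7 their mean was -1.50 ± 0.33 (SD, n = 7), and the fitted fold change was -1.51. With the mitochondrial share as a covariate the fold change was -1.13 (adjusted p = 0.00698).

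**Figure D2:**
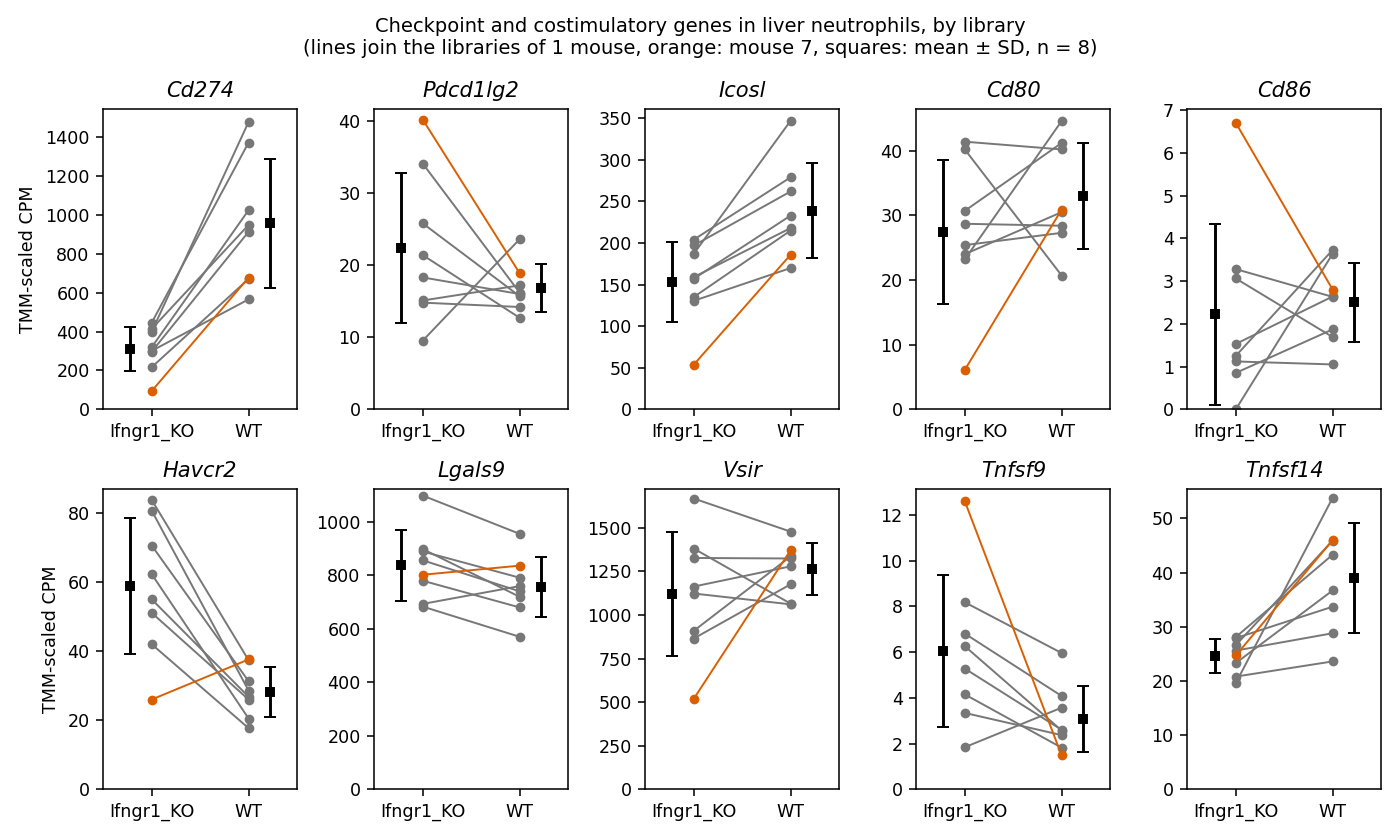
Level of each of the 10 genes in every library, in TMM-scaled CPM on axes from 0, with Ifngr1_KO to the left of WT in each panel, lines joining the libraries of 1 mouse (orange for mouse 7) and squares for the mean ± SD (n = 8). The groups are apart for Cd274 (highest Ifngr1_KO library 446 CPM, lowest WT library 566 CPM) and overlap for the other 9 genes.

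Pdcd1lg2 (ENSMUSG00000016498, chr19:29410919-29471161, plus strand) encodes PD-L2, the other ligand of PD-1, and starts 43 kb beyond the start of Cd274. Its lowest, median and highest levels were 9.53, 19.8 and 40.2 CPM in Ifngr1_KO, against 12.7, 16.1 and 23.6 CPM in WT. The groups overlapped, and Pdcd1lg2 was higher in Ifngr1_KO in 6 of 8 mice. Its log2 fold change was 0.31 (SE 0.28, adjusted p = 0.606), which did not pass. The adjacent genes gave different values in the same libraries, and this difference was tested directly. The 10 genes were chosen with earlier results of these data known, and the p-values of tests between pairs of them do not cover that choice.

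Within mice, the change of Cd274 minus that of Pdcd1lg2 was -1.96 ± 1.16 on the log2 (CPM + 1) scale (SD, n = 8), from -3.88 to -0.40. It was negative in 8 of 8 mice (p = 0.00781 by an exact sign-flip test, two-sided, the smallest value that 8 mice allow, and adjusted p = 0.0208 over the 4 pairs of genes compared). Per kb of exon, Cd274 was above Pdcd1lg2 in all 16 libraries, by a ratio with a median of 9.09 in Ifngr1_KO (1.27 to 15.1) and 33.6 in WT (15.4 to 49.5). The lowest ratio belonged to the Ifngr1_KO library of mouse 7, which had the lowest Cd274 and the highest Pdcd1lg2 of its group. Without mouse 7 the difference in change was -1.68.

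The promoters of these neighbours are shown because one gene of the pair fell and the other did not pass. Each sequence is from RefSeq on GRCm38.p6 and runs from 250 bases before the start site to 50 after it. Capitals mark matches to AANNGAAA on either strand, the core bound by interferon regulatory factors (IRFs). The Cd274 window is chr19:29367188-29367487 and the Pdcd1lg2 window is chr19:29410669-29410968, both on the plus strand.
Cd274: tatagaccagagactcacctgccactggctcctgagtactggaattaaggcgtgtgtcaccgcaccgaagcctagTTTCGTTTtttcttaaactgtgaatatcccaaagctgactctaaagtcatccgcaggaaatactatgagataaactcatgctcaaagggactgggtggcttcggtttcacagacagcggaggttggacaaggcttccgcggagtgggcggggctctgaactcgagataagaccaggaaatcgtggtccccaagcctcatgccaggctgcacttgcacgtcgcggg
Pdcd1lg2: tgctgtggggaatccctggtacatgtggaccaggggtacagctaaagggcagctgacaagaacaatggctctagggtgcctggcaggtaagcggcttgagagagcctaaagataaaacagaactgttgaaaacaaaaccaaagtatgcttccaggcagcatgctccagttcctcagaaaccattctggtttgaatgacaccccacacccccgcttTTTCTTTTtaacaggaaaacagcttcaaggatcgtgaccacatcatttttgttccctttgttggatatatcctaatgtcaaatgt
Each window held 1 match, TTTCGTTT at -175 from the Cd274 start site and TTTCTTTT at -35 from that of Pdcd1lg2, both read on the opposite strand. The letters are found in 23.9% of the 32851 RefSeq promoters of this length. A longer motif, GAAA, any 2 bases and GAAA again, is the core of the interferon-stimulated response element (ISRE). It was found in neither window and in 3.44% of all promoters. TTCNNNGAA, the core of the gamma-activated site, was in neither window and in 8.3% of all promoters. Of the 10 genes, 8 had a promoter in the RefSeq table, and Cd86 and Tnfsf9 did not. AANNGAAA was found in 4 of the 8 (Cd274, Pdcd1lg2, Cd80 and Lgals9), the ISRE core in Lgals9 alone, and TTCNNNGAA in none. AANNGAAA is contained in every ISRE core match, and was added to the search after the sequences had been seen.

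The Cd274 window also holds the start of Plgrkt, a plasminogen receptor gene on the other strand, whose annotated start lies 65 bases from that of Cd274. Plgrkt averaged 37.0 ± 12.0 CPM in Ifngr1_KO and 46.7 ± 12.6 CPM in WT, with a log2 fold change of -0.37 (SE 0.18, adjusted p = 0.339). Within 1 Mb of Cd274, 37 genes were annotated and 11 were tested, and Cd274 was the only gene of the 11 that passed. Jak2, a kinase of the IFN-gamma receptor, starts 116 kb before Cd274, on the same side as Plgrkt. Jak2 averaged 12.7 ± 4.76 CPM in Ifngr1_KO and 10.9 ± 4.80 CPM in WT (log2 fold change 0.25, SE 0.34, adjusted p = 0.761).

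The other tested neighbour with the smallest adjusted p was Rcl1, an RNA processing gene at 0.892 ± 1.07 CPM in Ifngr1_KO and 3.55 ± 1.48 CPM in WT. Its log2 fold change was -2.71 (SE 0.72, adjusted p = 0.0808). Rcl1 was lower in Ifngr1_KO in 8 of 8 mice, and DESeq2 alone of the 16 alternatives called it. The remaining 7 tested neighbours (Cdc37l1, A930007I19Rik, Ermp1, 9930021J03Rik, Uhrf2, Mbl2 and Pdcd1lg2) had adjusted p-values of 0.265 to 0.987. Of these, 9930021J03Rik was at a low level, with 2.87 ± 2.76 CPM in Ifngr1_KO and 0.481 ± 0.583 CPM in WT. This gene was higher in Ifngr1_KO in 7 of 8 mice (log2 fold change 3.23, SE 1.36, adjusted p = 0.265). DESeq2 alone of the 16 alternatives called it (3.61, adjusted p = 0.00731). A930007I19Rik runs antisense across the end of Pdcd1lg2 without sharing exon bases with it.

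**Figure D3:**
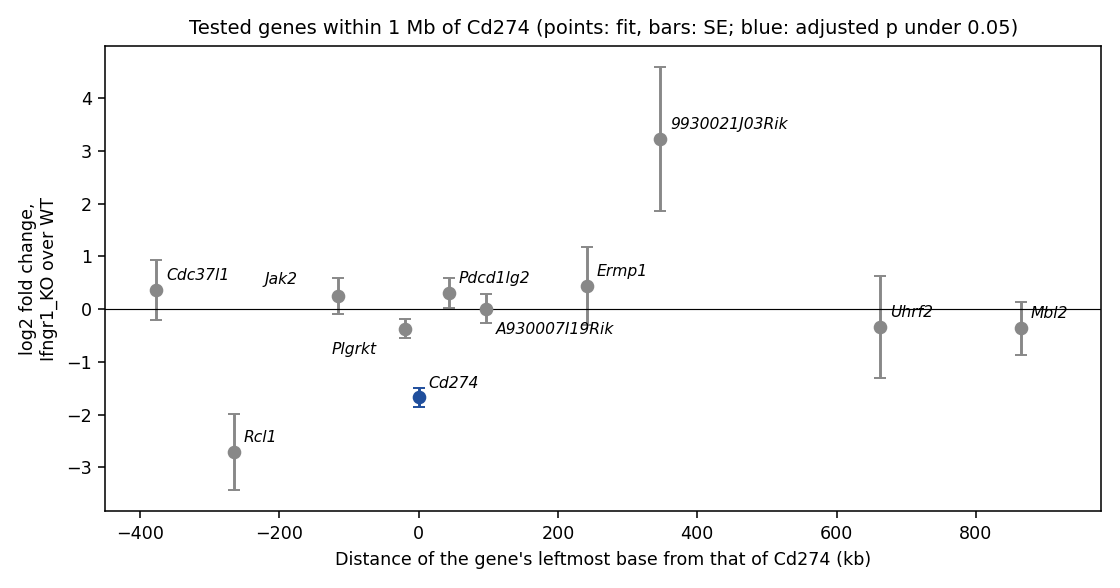
Fitted log2 fold change, Ifngr1_KO over WT, of the 11 tested genes within 1 Mb of Cd274 (points, with SE bars) against the distance of each gene from Cd274 in kb. Cd274, in blue at -1.67, is the only gene past the threshold, with Plgrkt at -0.37 and Pdcd1lg2 at 0.31 beside it.

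The list of genes of PD-L1 transcription and turnover held 22 genes, of which 21 were tested. Of these, 4 fell in Ifngr1_KO, none rose and 17 did not pass, with a median log2 fold change of -0.32. Over all genes tested, 2.32% fell and the median was 0.046. Among the 4 genes of the list that fell were the transcription factors Irf1 and Irf2. Ifngr1 was also among them, and as the gene that defines the genotype it is a check of the labels, not a separate result. Irf1 averaged 482 ± 155 CPM in Ifngr1_KO and 2478 ± 677 CPM in WT, a log2 fold change of -2.40 (SE 0.19, adjusted p = 4.1e-05). Irf2 averaged 117 ± 16.2 CPM in Ifngr1_KO and 222 ± 47.9 CPM in WT, a log2 fold change of -0.90 (SE 0.10, adjusted p = 4.4e-04). The change of Irf1 was larger in size than that of Cd274, and the change of Irf2 was smaller.

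Cmtm6, a membrane protein known to protect PD-L1 from degradation, averaged 389 ± 144 CPM in Ifngr1_KO and 572 ± 110.1 CPM in WT and did not pass (log2 fold change -0.64, SE 0.26, adjusted p = 0.246). Irf9, a transcription factor of interferon signalling, was lower in Ifngr1_KO in 8 of 8 mice, at 311 ± 65.3 CPM against 424 ± 54.4 CPM in WT, and did not pass either (log2 fold change -0.47, SE 0.13, adjusted p = 0.0856). It passed without mouse 7 (-0.37, adjusted p = 0.0454), by DESeq2 (adjusted p = 0.017) and by limma-voom with quality weights (adjusted p = 0.0295), and was -0.19 with the mitochondrial covariate.

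Icosl encodes the ligand of ICOS, a costimulator of activated T cells. The gene (chr10:78069302-78083913, plus strand) is 58.5 Mb from Ifngr1 on the same chromosome. Its lowest, median and highest levels were 53.7, 158 and 204 CPM in Ifngr1_KO, against 169.9, 225 and 347 CPM in WT. The groups overlapped, although Icosl was lower in Ifngr1_KO in 8 of 8 mice. The means were 153 ± 48.3 CPM in Ifngr1_KO and 239 ± 56.6 CPM in WT, a log2 fold change of -0.70 (SE 0.16, adjusted p = 0.0471).

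This call lay close to the threshold. Without the mouse block Icosl did not pass (-0.64, adjusted p = 0.145), and it was -0.38 once the mitochondrial share entered as a covariate (adjusted p = 0.724). Leaving out mouse 7, whose Ifngr1_KO library was the lowest for Icosl, gave -0.55 with an adjusted p of 0.0051, and leaving out any of the other 7 mice ended the call while the fold change stayed at -0.73 to -0.66, with adjusted p-values of 0.0774 to 0.149.

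Cd80 (chr16:38455561-38496335, plus strand) and Cd86 (chr16:36603869-36666081, minus strand) encode the CD28 and CTLA-4 ligands. The lowest, median and highest levels of Cd80 were 6.10, 27.1 and 41.4 CPM in Ifngr1_KO, against 20.7, 30.7 and 44.6 CPM in WT. The groups overlapped apart from the Ifngr1_KO library of mouse 7, which was the lowest of all, and the fitted log2 change was -0.37 (SE 0.30, adjusted p = 0.584). Without mouse 7 it was -0.12.

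Cd86 was the least abundant of the 10 genes, at 0, 1.39 and 6.70 CPM in Ifngr1_KO and 1.05, 2.63 and 3.73 CPM in WT (lowest, median and highest). The level of 0 was a count of 0 in the Ifngr1_KO library of mouse 9, where 3 counts, the limit that a count of 0 allows, would be 0.23 CPM. The mice were split, with 4 lower and 4 higher in Ifngr1_KO, and the log2 fold change was -0.57 with an SE of 0.80 (adjusted p = 0.768). The changes of Cd80 and Cd86 within mice differed by -0.05 ± 1.40 (SD, n = 8; p = 0.961 and adjusted p = 0.961 by the exact sign-flip test), a spread too wide to tell a shared change from separate ones.

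Vsir encodes VISTA, an inhibitory member of the B7 family carried by myeloid cells. The gene (chr10:60346851-60372684, plus strand) is 40.7 Mb from Ifngr1. Its lowest, median and highest levels were 519, 1143 and 1668 CPM in Ifngr1_KO, against 1061, 1302 and 1478 CPM in WT. The groups overlapped, 4 mice were lower and 4 higher in Ifngr1_KO, and the fitted log2 change was -0.23 (SE 0.18, adjusted p = 0.558). Without mouse 7, the lowest Ifngr1_KO library, it was -0.07.

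The list of B7 and CD28 family ligands, which holds 6 of these genes, counted 12 genes. Its 6 tested genes were those 6, so its counts repeat the results above. Of them, 2 fell in Ifngr1_KO (Cd274 and Icosl, against 2.32% of all genes tested), none rose, and the median log2 fold change was -0.47. The 6 that were not tested were Cd276, Vtcn1, Ildr2, Btnl2, Btn2a2 and Btn1a1, of which 3 had no count in any library and none averaged above 0.751 CPM in Ifngr1_KO or 0.406 CPM in WT.

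Havcr2 encodes TIM-3, a receptor that restrains T cells and is also carried by myeloid cells, and galectin-9, encoded by Lgals9, is a ligand of TIM-3. Havcr2 (chr11:46454935-46481255, plus strand) was at 26.0, 58.7 and 83.8 CPM in Ifngr1_KO and at 17.7, 27.7 and 37.6 CPM in WT (lowest, median and highest). It was higher in Ifngr1_KO in 7 of 8 mice, and the groups overlapped. The means were 58.9 ± 19.6 CPM in Ifngr1_KO and 28.2 ± 7.14 CPM in WT, a log2 fold change of 1.04 (SE 0.22, adjusted p = 0.0334).

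Mouse 7 was the exception for Havcr2, with a within-mouse log2 (CPM + 1) difference of -0.51, and its Ifngr1_KO library was the lowest of the group. Without it, the mean difference over the other 7 mice was 1.21 ± 0.22 (SD), and the fitted fold change was 1.24 (adjusted p = 2.7e-04). Leaving out any other mouse ended the call while the fold change stayed at 0.96 to 1.06, with adjusted p-values of 0.0727 to 0.108. The call was also lost with the mitochondrial covariate (1.44, adjusted p = 0.0711) and without a filter on low counts (1.01, adjusted p = 0.0554).

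**Figure D4:**
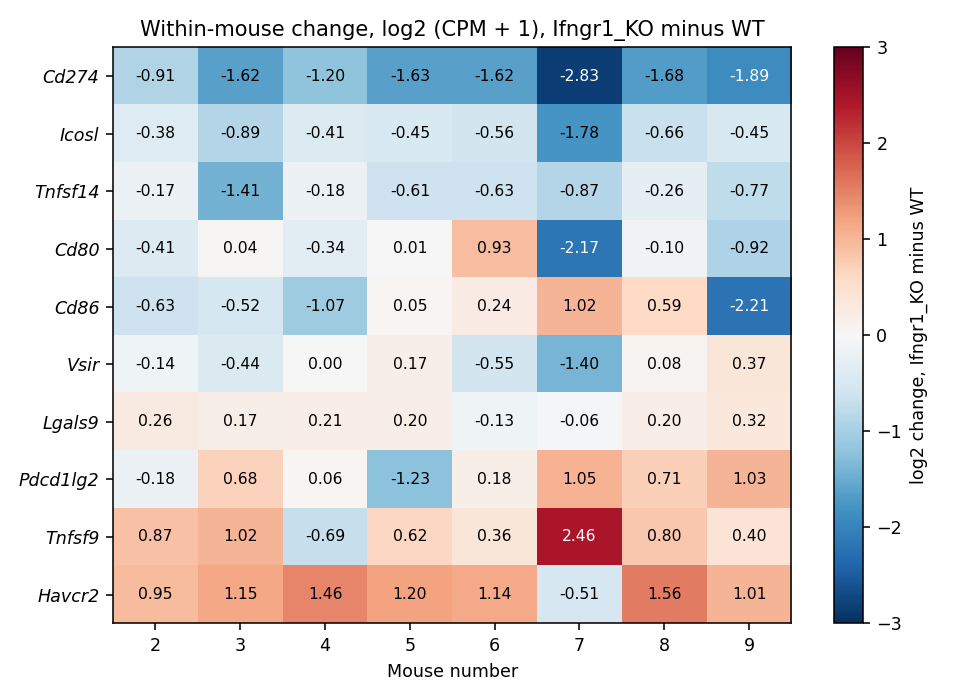
Within-mouse change of each of the 10 genes, as the log2 (CPM + 1) difference Ifngr1_KO minus WT, with genes as rows and mice as columns, each cell holding its value and coloured blue below 0 and red above. All 8 values are below 0 for Cd274, Icosl and Tnfsf14, and Havcr2 is above 0 in each mouse but mouse 7 (-0.51).

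Lgals9 (chr11:78962974-78984946, minus strand) was the most abundant of the 10 genes per kb of exon, and its within-mouse changes had the smallest spread (SD 0.16, n = 8). Its lowest, median and highest levels were 683, 829 and 1098 CPM in Ifngr1_KO, against 570.1, 749.8 and 955 CPM in WT. The groups overlapped, 6 of 8 mice were higher in Ifngr1_KO, and the fitted change was 0.15 on the log2 scale (SE 0.09, adjusted p = 0.436). The promoter of Lgals9 is shown because it alone of the 8 held the ISRE core, marked in capitals together with the shorter AANNGAAA. The window is chr11:78984875-78985174 on the minus strand of GRCm38.p6, from RefSeq.
Lgals9: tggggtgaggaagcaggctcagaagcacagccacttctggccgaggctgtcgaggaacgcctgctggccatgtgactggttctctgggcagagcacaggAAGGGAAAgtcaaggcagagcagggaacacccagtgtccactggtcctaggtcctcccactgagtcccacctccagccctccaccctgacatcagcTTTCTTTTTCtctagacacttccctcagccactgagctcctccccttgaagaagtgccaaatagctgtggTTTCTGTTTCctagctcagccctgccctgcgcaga
The ISRE core matches were TTTCTTTTTC at -55 and TTTCTGTTTC at 15 from the start site, and a further AANNGAAA match, AAGGGAAA, lay at -151. Within mice, the change of Havcr2 exceeded that of Lgals9 by 0.85 ± 0.59 (SD, n = 8), in 7 of 8 mice (p = 0.0156 and adjusted p = 0.0208 by the exact sign-flip test). Without mouse 7 the difference was 1.03.

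The list of other checkpoint ligands and receptors held 17 genes, of which 16 were tested. Of these, 1 rose in Ifngr1_KO (Havcr2), 1 fell (Fgl2) and 14 did not pass, with a median log2 fold change of 0.16. Over all genes tested, 0.477% rose and 2.32% fell. Fgl2, a fibrinogen-like protein that restrains T cells, averaged 206 ± 68.1 CPM in Ifngr1_KO and 430 ± 87.9 CPM in WT. Its log2 fold change was -1.12 (SE 0.20, adjusted p = 0.0124), and it did not pass with the mitochondrial covariate (-0.57). Siglece, a sialic acid receptor of myeloid cells, was at 774 ± 157 CPM in Ifngr1_KO and 914 ± 107 CPM in WT and did not pass (-0.26, SE 0.11, adjusted p = 0.29).

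Tnfsf14 encodes LIGHT, a TNF family ligand of the receptors HVEM and LTBR. The gene (chr17:57189492-57194177, minus strand) was at 19.6, 25.1 and 28.1 CPM in Ifngr1_KO and at 23.6, 40.0 and 53.8 CPM in WT (lowest, median and highest). It was lower in Ifngr1_KO in 8 of 8 mice, and the groups overlapped. The means were 24.6 ± 3.14 CPM in Ifngr1_KO and 39.0 ± 10.1 CPM in WT, and the log2 fold change of -0.63 (SE 0.17, adjusted p = 0.0889) did not pass. It passed without the mouse block (-0.67, adjusted p = 0.048) and by DESeq2 (-0.62, adjusted p = 0.00925).

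Tnfsf9 (chr17:57105325-57107757, plus strand) encodes the ligand of 4-1BB, a costimulator of T cells. It was at 1.84, 5.77 and 12.6 CPM in Ifngr1_KO and at 1.48, 2.59 and 5.96 CPM in WT (lowest, median and highest). The groups overlapped, 7 of 8 mice were higher in Ifngr1_KO, and the log2 fold change of 0.90 (SE 0.43, adjusted p = 0.336) did not pass. It was 0.62 without mouse 7, which had the largest within-mouse change (2.46 on the log2 (CPM + 1) scale), and 0.12 with the mitochondrial covariate. Tnfsf9 shares exon bases with Gm11110, which had at most 17 counts in a library, and the libraries do not mark strand.

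The changes of these 2 TNF family ligands differed within mice by 1.34 ± 1.13 (Tnfsf9 minus Tnfsf14, log2 (CPM + 1) scale, SD, n = 8), positive in 7 of 8 mice (p = 0.0156 and adjusted p = 0.0208 by the exact sign-flip test). Without mouse 7 the difference was 1.06. Neither gene passed on its own, so the test bears on the difference between them and not on the direction of either.

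Tnfrsf9, which encodes 4-1BB itself, was singled out after its values had been seen. It averaged 7.19 ± 2.60 CPM in Ifngr1_KO (4.40 to 10.9) and 1.57 ± 1.16 CPM in WT (0 to 3.73). It was higher in Ifngr1_KO in 8 of 8 mice with no overlap between the groups. Such a gap, in either direction, was seen in 1.65% of all genes tested. The log2 fold change of Tnfrsf9, 2.57 (SE 0.68, adjusted p = 0.0776), did not pass. DESeq2 (adjusted p = 1.2e-04), limma-voom with quality weights (adjusted p = 0.0285) and the fit without mouse 2 (adjusted p = 0.0254) called it. These were 3 of 16 alternatives, and the others did not call it, with an adjusted p of 0.362 under the mitochondrial covariate.

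The list of TNF family costimulators held 11 genes, of which 5 were tested. Of these, 1 fell in Ifngr1_KO (against 2.32% of all genes tested), none rose and 4 did not pass. Their median log2 fold change was -0.26. The gene that fell was Cd40, the receptor targeted by the antibody, at 18.7 ± 8.19 CPM in Ifngr1_KO and 91.4 ± 30.9 CPM in WT (log2 fold change -2.32, SE 0.15, adjusted p = 6.2e-06). Ltbr, a receptor of LIGHT, was at 131 ± 60.8 CPM in Ifngr1_KO and 144 ± 74.7 CPM in WT and did not pass (0.10, SE 0.39, adjusted p = 0.926). Its sign turned without the mouse block (-0.14) and without mouse 9 (-0.22). Tnfsf4, Tnfsf8, Tnfsf15, Tnfsf18, Cd70 and Cd40lg were too low to test, and 4 of these 6 had no count in any library.

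Receptors of T cells for costimulatory and checkpoint ligands, not only for the 10 genes, were mostly too low to test in these libraries. Of 16 such genes 3 were tested (Tnfrsf8, Tnfrsf9 and Tnfrsf18), none passed, and their median log2 fold change was -0.39. Tnfrsf8 (CD30) averaged 6.12 ± 3.17 CPM in Ifngr1_KO and 7.69 ± 3.03 CPM in WT, with a log2 fold change of -0.48 (SE 0.49) that turned positive with the mitochondrial covariate. Tnfrsf18 (GITR) averaged 7.69 ± 2.42 CPM in Ifngr1_KO and 10.1 ± 3.30 CPM in WT, with a log2 fold change of -0.39 (SE 0.27). The other 13, among them Pdcd1 (PD-1), Cd28, Ctla4 and Icos, averaged at most 0.376 CPM in Ifngr1_KO and 0.586 CPM in WT.

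Over the 5 lists together, 51 of 78 distinct genes were tested, of which 8 fell in Ifngr1_KO, with Ifngr1 itself among them. Of the 51, 1 rose and 42 did not pass, and the median log2 fold change was -0.18. Over all genes tested, 2.32% fell, 0.477% rose and the median was 0.046.

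Levels of different genes were compared per kb of exon. In Ifngr1_KO the order by mean CPM per kb was Lgals9 (392 ± 62.2), Vsir (223 ± 70.9), Cd274 (85.9 ± 31.8), Icosl (33.1 ± 10.5), Havcr2 (21.7 ± 7.20), Tnfsf14 (13.3 ± 1.70), Pdcd1lg2 (11.4 ± 5.31), Cd80 (7.41 ± 2.99), Tnfsf9 (4.70 ± 2.58) and Cd86 (0.608 ± 0.578). In WT it was Lgals9 (354 ± 52.7), Cd274 (264 ± 91.3), Vsir (252 ± 29.7), Icosl (51.7 ± 12.3), Tnfsf14 (21.1 ± 5.44), Havcr2 (10.4 ± 2.63), Cd80 (8.91 ± 2.21), Pdcd1lg2 (8.57 ± 1.69), Tnfsf9 (2.37 ± 1.12) and Cd86 (0.684 ± 0.255).

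Cd274 stood directly below Vsir in 8 of 8 Ifngr1_KO libraries. In WT, Cd274 and Vsir did not differ beyond their spread, with Cd274 above Vsir in 3 of 8 libraries. Havcr2 stood above Tnfsf14 in 7 of 8 Ifngr1_KO libraries and below it in 8 of 8 WT libraries. Lgals9 was above Cd274 in 6 of 8 WT libraries. In Ifngr1_KO, Tnfsf14 against Pdcd1lg2, Pdcd1lg2 against Cd80 and Cd80 against Tnfsf9 did not differ beyond their spread, and in WT the same held for Havcr2 against Cd80 and Cd80 against Pdcd1lg2. In each of these pairs the order held in 5 or 6 of 8 libraries. Tnfsf9 was above Cd86 in 8 of 8 libraries of both groups. Among all genes tested, Cd274 was above 94.1% of genes per kb in Ifngr1_KO and above 97.2% in WT.

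Likeness to Cd274 was measured as the mean absolute difference between the within-mouse log2 (CPM + 1) changes over the 8 mice. It was taken over 4884 genes whose mean log2 CPM reached 3, leaving out Cd274 itself and predicted genes with Gm or Rik names. The nearest were Tifa, a signalling adaptor of TRAF proteins (0.26), Irgm2, an immunity-related GTPase (0.30), Lta, lymphotoxin alpha of the TNF family (0.30), Tapbp, the MHC class I loading factor tapasin (0.31), and Gbp7, a guanylate-binding protein (0.32). Their log2 fold changes, which the choice fixes, were -1.74 for Tifa, -1.44 for Irgm2, -1.84 for Lta, -1.46 for Tapbp and -1.85 for Gbp7. In mouse 7, whose values the choice also used, all 5 lay between -3.25 and -2.32, around the -2.83 of Cd274. Of the other ligands the nearest was Icosl at 0.97, in place 255, followed by Tnfsf14 at 1.06, in place 358.

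**Figure D5:**
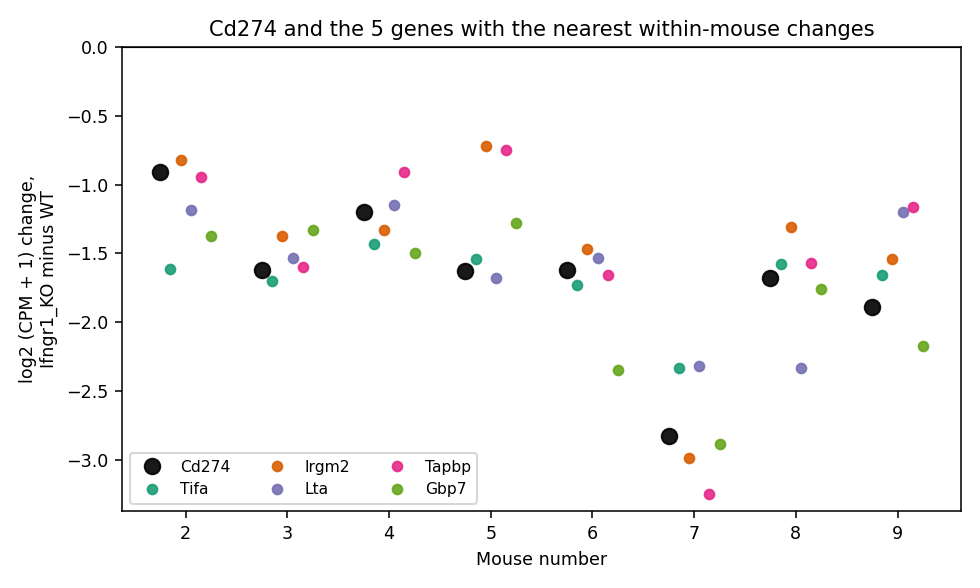
Within-mouse log2 (CPM + 1) change, Ifngr1_KO minus WT, of Cd274 (black) and of the 5 genes chosen as nearest to it, by mouse number, with points set side by side for visibility. All points lie below 0, and in mouse 7 they lie between -3.25 and -2.32. The choice used these same values, so their closeness to Cd274 is not a separate result.

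The 10 genes are also used by macrophages, monocytes and dendritic cells, so markers of these cells were read in the same libraries. Of 11 Kupffer cell and macrophage markers 6 were tested and Adgre1 fell in Ifngr1_KO, and their summed level was 381 to 1762 CPM in Ifngr1_KO and 1243 to 1892 CPM in WT. Vsig4, a defining marker of Kupffer cells, was at 0 in every library, and 5 of the 11 averaged under 1 CPM. Of 6 monocyte markers Ly6c2 fell, and the sum was 535 to 1136 CPM in Ifngr1_KO and 1040 to 1679 CPM in WT. By their medians both sums were lower in Ifngr1_KO, as Cd274 and Icosl were, at 1409 CPM against 1599 CPM in WT for macrophages and 755 CPM against 1248 CPM in WT for monocytes. A single gene made up most of each sum. Csf1r averaged 1287 ± 426 CPM in Ifngr1_KO and 1497 ± 192 CPM in WT and did not pass (log2 fold change -0.31, adjusted p = 0.532), and Ly6c2 averaged 741 ± 194 CPM in Ifngr1_KO and 1212 ± 209.9 CPM in WT. The part of these markers in the results for Cd274, Icosl and Havcr2 was not tested.

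Dendritic cell markers summed to 1.85 to 13.7 CPM in Ifngr1_KO and 1.09 to 8.86 CPM in WT, and T and NK cell markers to 4.79 to 26.8 CPM in Ifngr1_KO and 5.21 to 18.7 CPM in WT, with none called in either list. B cell markers summed to 19.4 to 65.2 CPM in Ifngr1_KO and 13.0 to 37.9 CPM in WT, also with none called. The Ifngr1_KO library of mouse 7 had the highest sum of its group for these 3 lists and for the monocyte list. It had the lowest for macrophages. It was also the highest for neutrophil markers (83274 CPM, group median 41333 CPM), endothelial markers (11.4 CPM) and erythroid and platelet markers (351 CPM). In its group it was also the lowest for 5 of the 10 genes (Cd274, Icosl, Cd80, Havcr2 and Vsir), the highest for 3 (Pdcd1lg2, Cd86 and Tnfsf9) and between the others for Lgals9 and Tnfsf14.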

How the data were processed

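The authors deposited estimated counts as whole numbers, 1 column for each of the 16 libraries and 1 row per Ensembl identifier, not scaled between libraries. Salmon 0.14.2, DESeq2 1.22.1 and the build mm10 are named in the submitters' processing notes, with roles, annotation and filters not given in the sources used here. Salmon estimates are fractional, so the values were taken as estimated counts that the authors rounded. Per the labels' protocols, libraries were made from 1 ng of RNA with SMART-Seq V4 oligo-dT priming, 13 PCR cycles and Nextera XT, so they carry no molecular identifiers or strand, and 0-count limits cover counting error only. Names and positions came from GENCODE for mm10, where 37 of 54532 identifiers had no name (at most 9.4e-04% of any library).

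The count test was run with edgeR 4.0.16 under R 4.3.3 (filterByExpr, TMM, robust quasi-likelihood F-test, mouse as block), which tested 9851 genes holding 99.7% of counts. Each SE was obtained from the fitted log2 fold change and its F statistic. Pairing comes from the series' design text, which ties equal numbers to a mouse; deviations from group means correlated by 0.176 on average within mice (0.0357 to 0.425) and -0.0233 between mice. Within-mouse changes used log2 (CPM + 1). Alternatives dropped the mouse block, scaled by DESeq2 size factors or library totals, or used other filters, DESeq2 1.42.0, limma-voom 3.58.1 with quality weights, or a covariate for the mitochondrial share. Each mouse was also left out in turn.

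The members and lists were chosen with earlier results of these data known. Named were the 10 members, Ifngr1, the called genes of each list (at most 6) with the 2 most abundant not called, each tested gene within 1 Mb of Cd274, and the 5 genes most like Cd274. Tnfrsf9 was added after its values were seen. Some genes that this rule names are not reported here.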

Additional observations from a re-analysis of the deposited data

How the results depend on the processing

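Cd274 kept its direction and its call under all 16 alternatives (log2 fold change -1.77 to -1.13). The number of the 10 genes called was 3 in the fit reported and 1, Cd274, without a filter on low counts and when the mitochondrial share was a covariate. It was 1 to 3 when each mouse was left out, with 3 only without mouse 7. Over all genes the count of 276 became 1060 by DESeq2, 597 by limma-voom with quality weights, 93 with the mitochondrial covariate, and 163 to 412 with each mouse left out (163 without mouse 3 and 412 without mouse 7). In the pathway lists 9 genes were called, against 14 by DESeq2, which called 11.0% of all genes (2.8% in the fit reported). Without the replicate block 268 genes were called, 215 of them shared with the fit reported, and the 3 of the 10 called were Cd274, Havcr2 and Tnfsf14. With library totals in place of TMM the 266 calls split into 164 lower and 102 higher in Ifngr1_KO, and the median of all genes moved to 0.157.

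The difference between Cd80 and Cd86 turned to 0.07 with a pseudocount of 0.5 CPM and ran from -0.25 to 0.40 with each mouse left out. Among single genes that did not pass, these signs turned with the mitochondrial covariate: Cd80 (0.09), Cmtm6 (0.01), Mbl2 (0.55), Tnfrsf8 (0.57), Uhrf2 (1.20) and A930007I19Rik (-0.50). A930007I19Rik was also -0.03 by limma-voom, -0.01 without a filter and -0.13 to 0.20 with each mouse left out. Cdc37l1 was -0.16 by limma-voom and -0.07 without the block, and Ltbr was -0.14 without the block and -0.22 to 0.35 with each mouse left out. Uhrf2 ran from -0.75 to 0.17 with each mouse left out. The cause of these changes was not tested. Cd86 had 0 to 79 counts and Tnfsf9 20 to 149 counts per library, and the effect of depth on them was not tested.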
